A study of Mus musculus with 24 samples.

Results

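MC38 is a mouse colorectal cancer cell line of the C57BL/6 strain. In the series, 8 lines derived from it were sequenced with 3 samples each, and the data described here are the 6 samples of MC38-FUT9 and of the line labelled FUT4, out of 24 samples in all. The samples were chosen by their labels. Both lines were made for gene overexpression with CRISPR-dCas-VPR, a catalytically dead Cas9 fused to a transcriptional activator that guides bring to a chosen gene, with Fut9 or Fut4 as the target gene, and both were grown in puromycin. The samples of MC38-FUT9 were labelled passages 6, 7 and 8, and those of the FUT4-labelled line passages 7, 8 and 7. MC38-MOCK#2, treated in the same way and given by the series as the reference of the overexpressing lines, was also grown in puromycin and sampled at passages 6, 7 and 8. Which guides were used and whether a line grew from a single clone is not given in the sources used here, so a difference between lines cannot be told apart from a difference between the cells each line was founded from.

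Fucosyltransferases move fucose from GDP-fucose onto glycans. FUT9 and FUT4 both attach it through an α1,3 linkage to the GlcNAc of N-acetyllactosamine (LacNAc) chains, which makes the Lewis x epitope, and Lewis antigens are known from colorectal carcinoma and from the binding of selectins and C-type lectins. The direct comparison of the lines asks in which RNAs cells activated for either enzyme differ from each other.

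The values are normalized counts, that is reads per gene that the authors multiplied by 1 factor per library and rounded. Their totals lay between 11733393 and 12263307 in MC38-FUT9 and between 11262031 and 11410391 in the FUT4-labelled line, and the reads behind them were estimated at 13530828 to 16231182 and at 9232754 to 13106727. Samples 1 and 3 of the FUT4-labelled line share a passage. Their median squared difference over the counting variance was 0.709, against 1.31 to 2.92 in the other pairs of the 3 CRISPR-dCas-VPR lines and 0.455 for counting noise alone. This cannot show whether they are separate harvests, since libraries of a single harvest could also exceed counting noise. They were kept as separate samples, as labelled. Merging them gave 5458 differentially expressed genes between the lines in place of 6922. Most markers of colon epithelium were absent or near 0, Krt20 in the FUT4-labelled line being the exception. The listed markers summed to 462, 270 and 481 normalized counts there, nearly all of them Krt20, against 12, 13 and 12 in MC38-FUT9. Epcam, Cdx2 and Krt19 did not pass the filter on zeros, and Cdh1, Krt8, Krt18 and Vil1 had at most 7 normalized counts in any of the 6 samples, whereas Vim, an intermediate filament of mesenchymal cells, had 19787 to 29214. Leukocyte, endothelial and erythroid markers were near 0, with 3 exceptions of low level that are given with the markers further on.

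Fut9 was expressed in both lines. MC38-FUT9 had 955, 641 and 676 normalized counts, and the FUT4-labelled line had 209, 171 and 186. The groups did not overlap, and every sample of either line lay far above the 0, 0 and 1 of MC38-MOCK#2 and above the 18 libraries of the other 6 lines, which ranged from 0 to 7. Between the lines the log2 fold change was 1.98 (SE 0.162, adjusted p = 0.000245). An exact two-sided permutation test gave p = 0.1, the smallest that 3 samples against 3 allow. Fut9 (ENSMUSG00000055373) lies on the minus strand at chr4:25609332-25800244 of GRCm38.

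Fut4, the gene named by the label of the other line, was almost silent there. The FUT4-labelled line had 1, 0 and 1 normalized counts and MC38-FUT9 had 0, 0 and 0. No other library of the series had any, so that the 24 libraries held 2 normalized counts in all. The difference was not detectable at this depth (log2 fold change -0.67, SE 0.371, adjusted p = 0.221, exact two-sided permutation p = 0.4), although the call changes when sample 2 of the FUT4-labelled line is left out (-1.0, adjusted p = 0.0144). Fut4 (ENSMUSG00000049307) is a gene of a single exon on the minus strand at chr9:14748320-14752393. The RNA therefore goes against the label, the line holds Fut9 RNA and almost no Fut4 RNA, and it is called the FUT4-labelled line throughout. Every direction below compares MC38-FUT9 with that line and not with a line shown to express Fut4.

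Among the tested neighbours of Fut4, only the nearest gene on either side was called. As a share this is below the 31.5% of all genes tested that were called. Whether these calls are related to the targeting of Fut4 was not tested. Piwil4, a PIWI family gene that lies 7587 bases away, had 2, 1 and 3 normalized counts in MC38-FUT9 and 21, 16 and 22 in the FUT4-labelled line (log2 fold change -2.83, SE 0.362, adjusted p = 0.00142). In MC38-MOCK#2 it had 2, 4 and 13, and the 18 libraries of the other lines reached 25, so the level of the FUT4-labelled line was not outside that range. 1700012B09Rik, which lies 4194 bases from Fut4 on the other side, had 0, 1 and 3 against 18, 35 and 32 (-3.82, SE 0.563, adjusted p = 0.00259), with 0 in all samples of MC38-MOCK#2 and at most 4 in the 18 other libraries. Here the FUT4-labelled line stood above every other library. The remaining 8 tested neighbours, 4 on either side, were not called, among them Ankrd49 (283, 292 and 314 against 269, 313 and 255) and Amotl1 (1668, 1691 and 1726 against 1797, 1345 and 1760). This was not the same in every setting. Cwc15 and Mre11a were called when the libraries were scaled to equal totals, and Gm16379 without sample 2 of the FUT4-labelled line.

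Around Fut9, 3 of 10 tested neighbours were lower in MC38-FUT9 and 0 were higher. In both directions together this is near the 31.5% of all genes tested that were called. Ufl1, the ligase that attaches UFM1 to proteins, had 325, 357 and 319 normalized counts in MC38-FUT9, 808, 688 and 844 in the FUT4-labelled line and 388, 406 and 401 in MC38-MOCK#2 (log2 fold change of MC38-FUT9 over the FUT4-labelled line -1.22, SE 0.0936, adjusted p = 0.000191). Manea, an endomannosidase of N-glycan processing, had 299, 275 and 323 against 586, 488 and 548, with 232, 268 and 276 in MC38-MOCK#2 (-0.85, SE 0.0950, adjusted p = 0.000809). For both genes the FUT4-labelled line stood above the other lines, which lay closer together. The farthest called neighbour was the ephrin receptor Epha7, 3012887 bases away (-0.84, adjusted p = 0.0258), and leaving out either of samples 1 and 2 of the FUT4-labelled line or samples 2 and 3 of MC38-FUT9 ended its call.

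**Figure D1:**
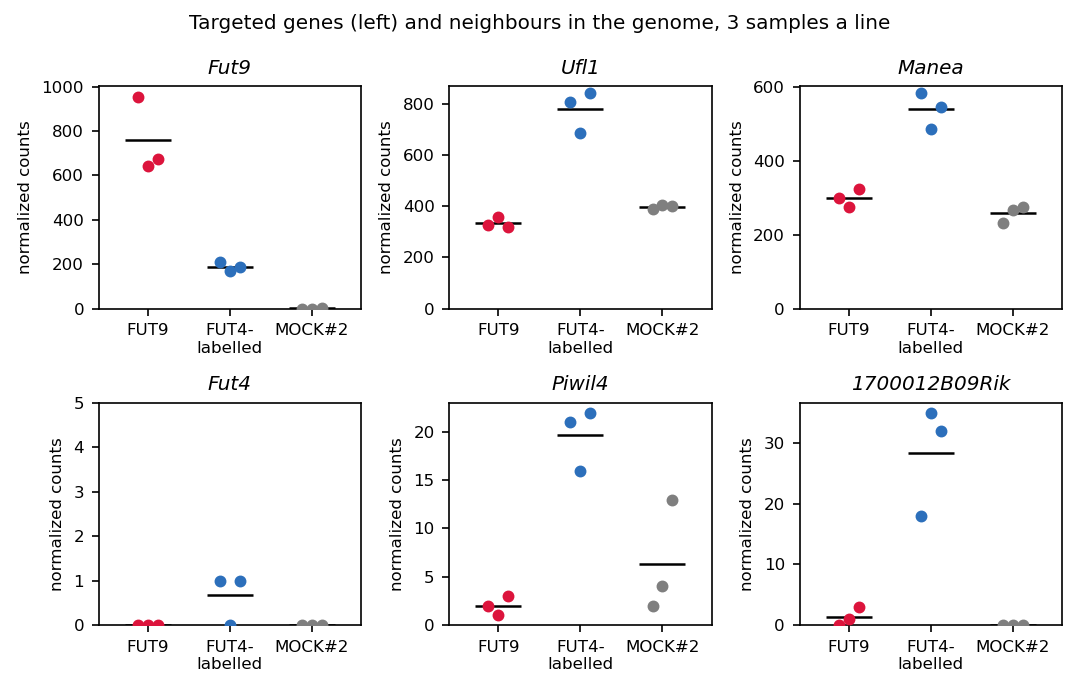
Normalized counts (y axes, linear from 0) of Fut9, Fut4 and called genes beside them in the 3 samples of MC38-FUT9, the FUT4-labelled line and MC38-MOCK#2; points are samples and bars are means. Fut9 reached 171 to 209 in the FUT4-labelled line, where Fut4 stayed at 0 or 1.

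Across the transcriptome, 21961 of 52636 genes had at most 4 zeros among the 6 samples and were tested. With limma and a Benjamini-Hochberg adjusted p below 0.05, 6922 were differentially expressed genes (DEGs), or 31.5%. Of these, 3452 were higher in MC38-FUT9 (15.7% of genes tested) and 3470 were lower (15.8%), and the median log2 fold change of all genes tested was 0. Among the 13441 genes with a mean of at least 10 normalized counts the share of DEGs was 44.4%. Samples of the lines did not overlap for 41.4% of the genes tested.

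The near equality of directions over all DEGs did not hold by size, and it moved with the scaling (2877 higher and 4156 lower with equal totals). DEGs with an absolute log2 fold change up to 1 numbered 2543 higher and 1886 lower in MC38-FUT9. DEGs with an absolute log2 fold change above 1 numbered 909 higher and 1584 lower in MC38-FUT9 (11.4% of genes tested in all), those above 3 numbered 123 and 435, and those above 5 numbered 37 and 95. The plot of all genes shows this as a fan of strongly lower genes that is denser than the fan above 0.

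**Figure D2:**
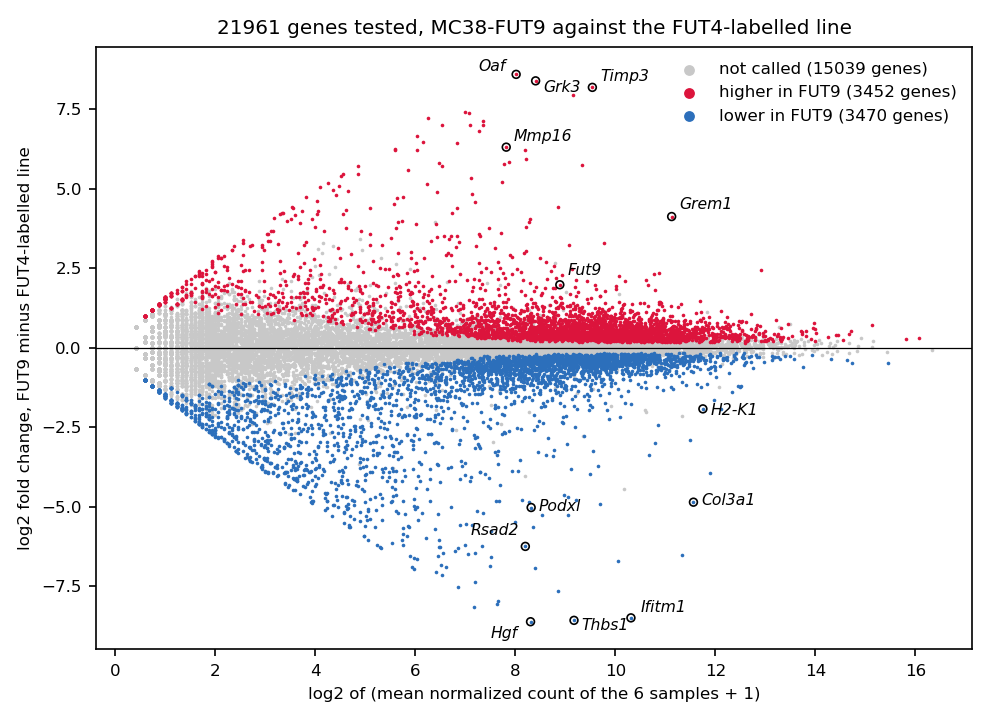
Log2 fold change of MC38-FUT9 over the FUT4-labelled line (y axis) against log2 of the mean normalized count plus 1 (x axis) for the 21961 genes tested, each point a gene, with DEGs coloured by direction. Named genes are circled, and below 0 the DEGs reach far from the axis more often than above it (435 against 123 beyond a log2 fold change of 3).

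MC38-MOCK#2 lay between both lines on the axis along which they differ most. In a principal component analysis of the 9 libraries the leading component took 50.6% of the variance. On it MC38-FUT9 lay at 65.9 to 68.2, MC38-MOCK#2 at -13.4 to -7.66 and the FUT4-labelled line at -58.5 to -53.1. The next component took 27.1% and set MC38-MOCK#2 (-63.95 to -44.15) apart from both MC38-FUT9 (16.79 to 21.42) and the FUT4-labelled line (30.36 to 37.23). For 58.7% of the DEGs higher in MC38-FUT9, and for 55.1% of those lower, the mean of MC38-MOCK#2 was nearer to the FUT4-labelled line. It was below both lines for 21.4% of the higher DEGs and above both for 22.5% of the lower DEGs. Fitted in the same way, MC38-FUT9 against MC38-MOCK#2 gave 5166 DEGs (24.1%; 12.1% higher and 12% lower) and the FUT4-labelled line against MC38-MOCK#2 gave 3509 (16.1%; 8.1% higher and 8.04% lower). Leaving out sample 1 or 2 of MC38-FUT9 or sample 2 of MC38-MOCK#2 lowered the first of these counts to 2694, 3079 and 3132, and leaving out sample 1 or 3 of the FUT4-labelled line or sample 2 of MC38-MOCK#2 lowered the other to 1596, 1592 and 1898. These comparisons share the samples of MC38-MOCK#2 and are given only side by side.

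The 12 DEGs that were highest in MC38-FUT9 by fold change, among those with a mean of at least 50, were nearly absent from the FUT4-labelled line. For several genes whose lower line held at most 3 normalized counts summed over its samples, the fold is given as a ratio. Its 95% interval covers counting error only. Oaf had 370, 407 and 768 normalized counts in MC38-FUT9 against 0, 0 and 1, a ratio of 1578 (interval 283 to 62340). Grk3, a kinase that desensitizes G protein-coupled receptors, had 656, 608 and 760 against 1, 1 and 1 (696, interval 238 to 3379). Both stood apart from the FUT4-labelled line in every sample, but they differed in the control line, where Oaf had 84, 124 and 168 and Grk3 had 2, 1 and 0.

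Timp3, an inhibitor of matrix metalloproteinases, was the most abundant of the 12 with 1338, 1535 and 1570 normalized counts against 1, 12 and 4 (log2 fold change 8.19, SE 0.609, adjusted p = 0.000174). Sulf2, a sulfatase that edits heparan sulfate, had 1008, 1106 and 1261 against 11, 0 and 7 (7.94, SE 0.862, adjusted p = 0.000729). Both had an intermediate level in MC38-MOCK#2, 225 to 359 for Timp3 and 285 to 464 for Sulf2. Ky was at 156, 122 and 172 against 0 in all 3 samples, at least 50-fold higher when the empty samples are set to the floor of 3 normalized counts per library, and at 277 to 368 in MC38-MOCK#2.

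Pnrc2, a coactivator of nuclear receptors that also acts in mRNA decay, was missing from the FUT4-labelled line alone. It had 194, 173 and 182 normalized counts in MC38-FUT9 against 0, 0 and 2 (ratio 285, interval 78.5 to 2355), and the 18 libraries of the other 6 lines ranged from 37 to 553. Arhgap30, a GTPase-activating protein, had 311, 363 and 297 against 3, 1 and 1, with 268 to 399 in MC38-MOCK#2 (log2 fold change 7.00, SE 0.314, adjusted p = 3.11e-05). Hspa12b, of the HSP70 family, had 215, 230 and 306 against 0, 0 and 2, with 87 to 192 in the control line. For these 3 genes, as for Ky, the control line was expressed like MC38-FUT9 and not like the FUT4-labelled line.

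For Pid1 and Six3os1, as for Grk3, MC38-FUT9 stood apart from both other lines. Pid1 had 223, 197 and 493 normalized counts against 4, 0 and 2, with 0, 1 and 3 in MC38-MOCK#2. Six3os1, an antisense transcript of the homeobox gene Six3, had 263, 249 and 283 against 1, 1 and 0, with 9 to 13 in the control line. Six3 itself moved the same way with 28, 17 and 28 against 0, 0 and 1, but since the strand setting of the read counting is not stated the reads of the pair cannot be told apart. Ptchd1 (285, 310 and 368 against 5, 1 and 0) and Clip3, a microtubule-binding protein (254, 245 and 310 against 2, 0 and 2), completed the 12, with intermediate levels of 20 to 83 and 38 to 103 in MC38-MOCK#2.

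The 12 DEGs with the largest difference in the other direction were nearly absent from MC38-FUT9. Hgf, the ligand of the receptor tyrosine kinase MET, had 1, 0 and 1 normalized counts in MC38-FUT9 against 681, 503 and 703, a ratio of 1194 between the FUT4-labelled line and MC38-FUT9 (interval 330 to 9862). Thbs1, the matrix glycoprotein thrombospondin, had 2, 2 and 2 against 1256, 969 and 1225 (log2 fold change -8.57, SE 0.151, adjusted p = 2.62e-06). Ifitm1, an interferon-induced membrane protein that restricts virus entry, had 2, 15 and 6 against 2706, 2069 and 2821 (-8.50, SE 0.552, adjusted p = 0.000110). MC38-MOCK#2 expressed all 3, at 9 to 33, 345 to 753 and 293 to 607, below the FUT4-labelled line in each case.

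For several of the 12 the control line was nearly as low as MC38-FUT9. Akr1c18, a reductase of progesterone, had 0 in all samples of MC38-FUT9 against 253, 352 and 251, at least 95.1-fold lower, and at most 1 in MC38-MOCK#2. Krt20, a keratin of the intestinal epithelium, had 0, 2 and 0 against 448, 263 and 468 (ratio 504, interval 172 to 2448), with 1, 0 and 0 in the control line. Car12, a membrane carbonic anhydrase, had 1, 0 and 0 against 239, 219 and 231, with 0, 0 and 1 in the control line. Tmem45a had 0 in all samples against 141, 114 and 118, at least 41.4-fold lower, and at most 2 in the control line. Robo2, a receptor of SLIT guidance cues, had 1, 0 and 0 against 178, 157 and 169, with 6, 1 and 5 in the control line.

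Cdh6, a cadherin, had 1, 1 and 0 normalized counts against 423, 372 and 402, and Gap43, a growth cone protein, had 0, 1 and 0 against 189, 133 and 224. The control line held 27 to 35 and 24 to 36 of them, above MC38-FUT9 and below the FUT4-labelled line. Sprr1b, a cornified envelope protein, had 3, 5 and 2 against 629, 1557 and 580, sample 2 of the FUT4-labelled line being far above the other samples, and 12 to 37 in the control line. Sod3, the extracellular superoxide dismutase, was the exception to this order: it had 0, 4 and 0 against 308, 199 and 361, and MC38-MOCK#2 was higher still with 629, 640 and 617.

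**Figure D3:**
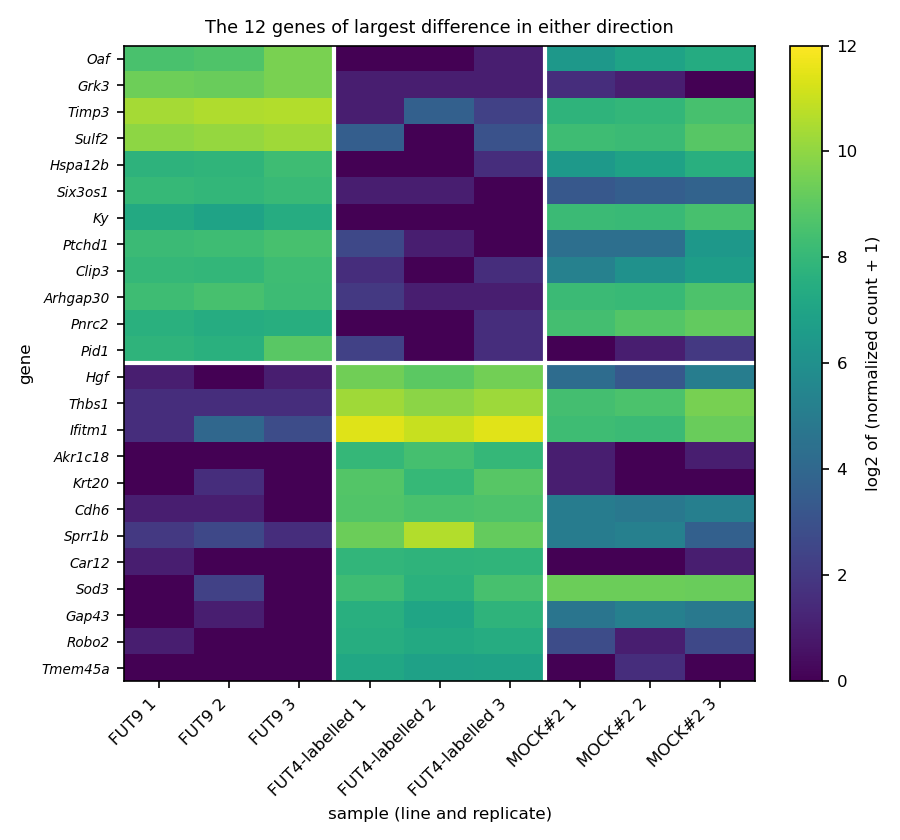
Log2 of the normalized count plus 1 (colour) of the 12 genes of largest difference in either direction (rows; higher in MC38-FUT9 above the white line, lower below it) in the 9 samples of the 3 CRISPR-dCas-VPR lines (columns). The FUT4-labelled samples are near 0 above the line and the MC38-FUT9 samples near 0 below it, while MC38-MOCK#2 takes either state or a level between.

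DEGs were then counted in 26 gene lists, read against the 15.7% of genes tested that were higher and the 15.8% that were lower. The lists hold many well expressed genes, for which the background is closer to the 44.4% above, a share of both directions together. Interferon-stimulated genes (35 lower and 1 higher of 42 tested), genes of MHC class I and peptide loading (14 lower and 0 higher of 18) and glycolysis and hypoxia genes (11 lower and 0 higher of 30) held at most 1 higher DEG. Lower DEGs were also more numerous among chemokines and cytokines (6 lower and 1 higher of 20), lipid synthesis genes (12 and 4 of 32), p53 targets (12 and 5 of 25) and Notch genes (8 and 3 of 20). Higher DEGs were more numerous among checkpoint and NK ligands (6 higher and 2 lower of 18), matrix proteases (5 and 2 of 27), Wnt genes (10 and 5 of 27) and cell cycle genes (15 and 8 of 43). In both directions together, DEGs were 25.9% of matrix proteases, 35% of chemokines and cytokines and 36.7% of glycolysis and hypoxia genes, below that 44.4%. Also below it were genes of GDP-fucose synthesis and transport (25%), glycoproteins (30%), integrins (33.3%), Hox genes (37.5%) and TGF-β and BMP genes (39.3%). Checkpoint and NK ligands equalled it, and fucosyltransferases (45.5%) and ER stress genes (46.9%) were near it. For these lists only the split by direction is described.

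**Figure D4:**
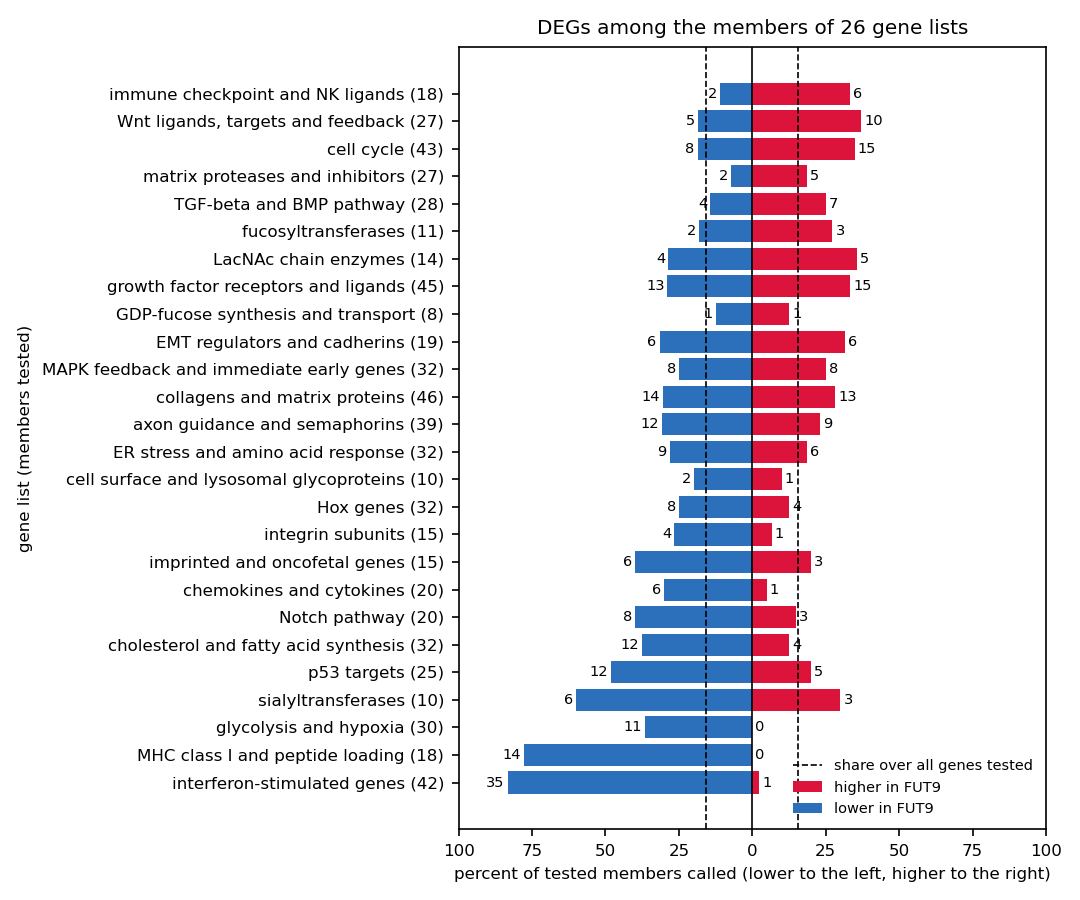
Percent of the tested members of each of 26 gene lists (rows, number tested in parentheses) that were DEGs higher (right) or lower (left) in MC38-FUT9, with the number of DEGs at the end of each bar and dashed lines at the shares over all genes tested, 15.7% and 15.8%. Bars for interferon-stimulated and MHC class I genes extend to the left well past the dashed line.

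Among 11 fucosyltransferases, all tested, Fut9, Fut10 and Fut11 were higher in MC38-FUT9 and Fut1 and Sec1 were lower (median log2 fold change of the list -0.11, which becomes 0 with lines at 0 set to their bound and turns positive when chromosome medians are removed, against 0 over all genes). Fut11, an α1,3-fucosyltransferase of the endoplasmic reticulum, had 68, 76 and 78 normalized counts against 27, 26 and 19 (log2 fold change 1.60, SE 0.188, adjusted p = 0.00102). MC38-MOCK#2 had 91, 94 and 109, so that the FUT4-labelled line was the low line. Fut10 had 382, 421 and 420 against 289, 282 and 303 (0.48, adjusted p = 0.0025). Fut1 and Sec1, of the α1,2 family, had 0, 0 and 0 against 1, 2 and 1 and 19, 28 and 24 against 49, 42 and 34. Fut1 was not called without sample 1 of MC38-FUT9, and Sec1 was not called without sample 1 or 2 of the FUT4-labelled line or without any of the samples of MC38-FUT9. Without sample 1 of MC38-FUT9 the lower DEGs of the list were therefore 0. Fut8, which adds core fucose, Pofut1 and Pofut2, which fucosylate protein domains, and Fut2, Fut4 and Fut7 were not called. Fut7, the partner of FUT4 in selectin ligand synthesis, had at most 2 normalized counts in either line.

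Of 8 tested genes for GDP-fucose synthesis and transport, 1 was higher and 1 lower. Slc35c1, the Golgi transporter of GDP-fucose, had 391, 351 and 385 normalized counts in MC38-FUT9 and 537, 578 and 569 in the FUT4-labelled line (-0.58, SE 0.0686, adjusted p = 0.00103). Gmds, which converts GDP-mannose on the way to GDP-fucose, had 378, 448 and 392 against 337, 334 and 310 (0.31, adjusted p = 0.0315), and its call was lost without any sample other than sample 1 of MC38-FUT9. Both lines were below MC38-MOCK#2 in Gmds (486, 539 and 488).

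Enzymes that build or branch the LacNAc chains that α1,3-fucosyltransferases act on had 5 higher and 4 lower DEGs among 14 tested. B3gnt3, which extends core 1 O-glycans, had 25, 26 and 35 normalized counts in MC38-FUT9 against 406, 319 and 391 (-3.66, SE 0.168, adjusted p = 3.34e-05). Gcnt2, the I-branching enzyme, had 10, 14 and 13 against 119, 96 and 114 (-3.06, SE 0.194, adjusted p = 0.000102). Both were intermediate in MC38-MOCK#2, at 199 to 269 and 63 to 72. B4galt4, a galactosyltransferase, had 1, 2 and 0 against 28, 21 and 26, and the control line was as low as MC38-FUT9 with at most 1. In the other direction B3gnt9 had 103, 100 and 132 against 36, 40 and 49 (1.40, SE 0.177, adjusted p = 0.00134), and the galactosyltransferases B4galt1 (0.69), B4galt2 (0.53), B4galt5 (0.28) and B4galt6 (1.03) were also higher. Without sample 1 of MC38-FUT9 the higher DEGs were 3.

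Sialyltransferases compete with fucosyltransferases for the ends of such chains, and 9 of the 10 tested were DEGs, 3 higher and 6 lower. St3gal6, an α2,3-sialyltransferase of LacNAc ends, had 9, 16 and 5 normalized counts in MC38-FUT9 against 131, 143 and 107 (-3.66, SE 0.378, adjusted p = 0.000598), with 183 to 191 in MC38-MOCK#2. St3gal4, of the same activity, went the other way with 627, 747 and 899 against 470, 475 and 447 (0.69, SE 0.127, adjusted p = 0.00649). St3gal1, which caps core 1 O-glycans, had 138, 100 and 109 against 266, 177 and 276 (-1.03, adjusted p = 0.00874), a call that did not hold without sample 1 or 3 of the FUT4-labelled line or sample 2 or 3 of MC38-FUT9. St6gal1, the α2,6-sialyltransferase of N-glycans, was near silent at 0 in MC38-FUT9 and 4, 2 and 3. The count of higher DEGs fell to 1 without any sample but sample 2 of MC38-FUT9, and that of lower DEGs to 3 without sample 1 of the FUT4-labelled line or sample 3 of MC38-FUT9.

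Of 10 tested glycoproteins that can carry such epitopes, 1 was higher and 2 were lower. Podxl, the sialomucin podocalyxin, had 17, 20 and 17 normalized counts in MC38-FUT9, 666, 585 and 600 in the FUT4-labelled line and 66, 55 and 39 in MC38-MOCK#2 (-5.03, SE 0.115, adjusted p = 3.60e-06), so that the FUT4-labelled line stood above the control and MC38-FUT9 below it. Glg1, a Golgi glycoprotein and E-selectin ligand, had 5401, 4831 and 5621 against 3057, 3040 and 3169 (0.77, SE 0.0666, adjusted p = 0.000297). The lysosomal proteins Lamp1 and Lamp2 and the adhesion receptor Cd44 were not called, with Cd44 at 3088 to 3736 in MC38-FUT9 and 3453 to 3637 in the FUT4-labelled line. The second lower DEG, Mcam, had a log2 fold change of -0.34 and was not called without sample 1 or 3 of the FUT4-labelled line or without any of the samples of MC38-FUT9. Without sample 2 of the FUT4-labelled line the counts of the list were 2 higher and 3 lower.

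Interferon-stimulated genes answer to interferon through a transcription factor complex that binds an element built of repeated GAAA. Its core, GAAANNGAAA on either strand, was searched for in RefSeq promoters of GRCm38.p6, from 250 bases before to 50 after the start. It was found in 19 of the 31 list members that matched a promoter (61.3%) and in 16 of the 27 of these that were lower (59.3%), against 3.99% of all 27025 genes with a promoter. Among tested genes it was found in 5.76% of 2554 DEGs lower in MC38-FUT9, 2.53% of 2488 higher and 3.43% of those not called. Stretches of 4 promoters of lower DEGs are printed 5′ to 3′ on the strand of the gene, with the matches, and matches that overlap, in capitals, as examples, chosen after their matches were seen, of a match before the start. In Ifih1, a lower DEG too, the only match lay 32 bases after the start, and Ifit3, which was not called, had 2 matches. They lie at chr4:156200855-156200916 and chr12:26456543-26456592 (both minus strand) for Isg15 and Rsad2, and at chr19:34640765-34640833 (plus strand) and chr5:120907510-120907565 (minus strand) for Ifit1 and Oas1a.
Isg15: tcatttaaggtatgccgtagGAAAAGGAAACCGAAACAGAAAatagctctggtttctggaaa
Rsad2: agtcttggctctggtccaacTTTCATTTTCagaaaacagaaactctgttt
Ifit1: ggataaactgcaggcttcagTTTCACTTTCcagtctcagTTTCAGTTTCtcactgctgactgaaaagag
Oas1a: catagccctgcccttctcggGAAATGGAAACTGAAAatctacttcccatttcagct
A match is a description of the letters and not a measured binding site.

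Of the 42 listed interferon-stimulated genes, 35 were lower in MC38-FUT9 and 1 was higher, with a median log2 fold change of -3.05 against 0 over all genes tested. Rsad2, the antiviral enzyme viperin, had 8, 2 and 6 normalized counts in MC38-FUT9 and 834, 126 and 781 in the FUT4-labelled line (-6.25, SE 0.787, adjusted p = 0.00133). Oasl1, of the OAS family that senses double-stranded RNA, had 13, 11 and 25 against 941, 266 and 964 (-5.25, SE 0.546, adjusted p = 0.000609), and Oasl2 had 15, 8 and 26 against 711, 146 and 775 (-4.78, SE 0.702, adjusted p = 0.00254). Usp18, which takes ISG15 off proteins and dampens interferon signalling, had 2, 2 and 1 against 124, 17 and 128 (-4.66, SE 0.771, adjusted p = 0.00424). In each of them all samples of MC38-FUT9 were below all of the FUT4-labelled line, and sample 2 of that line was the lowest of its 3.

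The same held for the sensors and the transducers of the pathway. Ifih1, the RNA sensor MDA5, had 12, 11 and 14 normalized counts against 299, 141 and 340 (-4.20, adjusted p = 0.000219), and Ddx58, the RNA sensor RIG-I, had 108, 105 and 127 against 756, 334 and 803 (-2.37, adjusted p = 0.00191). Stat2 had 234, 222 and 270 against 833, 360 and 860 (-1.40), and Irf9 had 146, 143 and 134 against 552, 242 and 521 (-1.54). The transducers stayed expressed in MC38-FUT9, while Isg15, the ubiquitin-like modifier, had 19, 9 and 19 against 531, 106 and 553. The DEG in the other direction was Ifit2, with 223, 231 and 241 against 114, 101 and 98 (1.15, adjusted p = 0.000255), and 215, 267 and 367 in MC38-MOCK#2. Bst2, Ifit3, Ifit3b, Iigp1, Mx1 and Mx2 were not called.

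Libraries within a line differed in these genes. Summed over the list, MC38-FUT9 had 4296, 4189 and 3992 normalized counts, the FUT4-labelled line 14189, 7029 and 14181, and MC38-MOCK#2 9727, 8515 and 24788. Sample 2 of the FUT4-labelled line, the only one of passage 8, was thus the low library of its line, and sample 3 of MC38-MOCK#2 the high library of the control, while the samples of MC38-FUT9 lay close together below all others. Without sample 2 of the FUT4-labelled line 40 members were lower and 1 was higher. Without sample 1 or sample 3 of that line, where sample 2 weighs more, 20 and 19 were lower, and without sample 1 or 2 of MC38-FUT9 22 and 23 were. With samples 1 and 3 of the FUT4-labelled line merged into 1, 23 were lower. Against MC38-MOCK#2, MC38-FUT9 had 34 lower and 0 higher DEGs of 42 (median -3.59), 33 lower without sample 3 of the control, 21 without sample 1 of the control, and 11 or 12 when a sample of MC38-FUT9 was left out. The FUT4-labelled line had 2 lower and 0 higher (median -0.26, but 0.57 without sample 3 of the control and 0.29 without its own sample 2). With its few calls and shifting sign, no direction is given for the latter.

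MHC class I molecules show peptides from the cytosol to CD8+ T cells, and 14 of 18 genes of this pathway were lower in MC38-FUT9, 0 were higher and 4 were not called (median log2 fold change -1.33). The heavy chain H2-K1 had 1452, 1191 and 1620 normalized counts in MC38-FUT9 against 6262, 3929 and 6217 (-1.92, adjusted p = 0.000634), and H2-D1 had 1965, 1893 and 2070 against 5109, 3852 and 5130 (-1.24, adjusted p = 0.000415). Their partner B2m differed less, with 1258, 1217 and 1249 against 2034, 1519 and 2048 (-0.58, adjusted p = 0.0101). Both lines thus kept these RNAs at a high level, and the samples of the lines did not overlap.

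The largest differences of the pathway lay in peptide supply and in its regulator. Psmb8, a catalytic subunit of the immunoproteasome, had 34, 30 and 37 normalized counts against 431, 248 and 412 (-3.36, SE 0.225, adjusted p = 0.000122), and Nlrc5, the transactivator of class I genes, had 15, 18 and 11 against 124, 69 and 161 (-2.87, SE 0.343, adjusted p = 0.00107). Tap2, a chain of the peptide transporter, had 73, 73 and 79 against 584, 241 and 612 (-2.54, SE 0.343, adjusted p = 0.00178). Psmb9 had 3, 5 and 10 against 62, 16 and 52 (-2.58, adjusted p = 0.0170), a call lost without sample 1 or 3 of the FUT4-labelled line or sample 1 or 2 of MC38-FUT9. The general chaperones Calr, Canx and Pdia3, which also fold other proteins, were not called, nor was H2-T23. Without sample 2 of the FUT4-labelled line 2 members were higher. In the comparisons with MC38-MOCK#2 the list held 14 lower and 1 higher DEGs for MC38-FUT9, and 1 lower and 0 higher for the FUT4-labelled line.

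**Figure D5:**
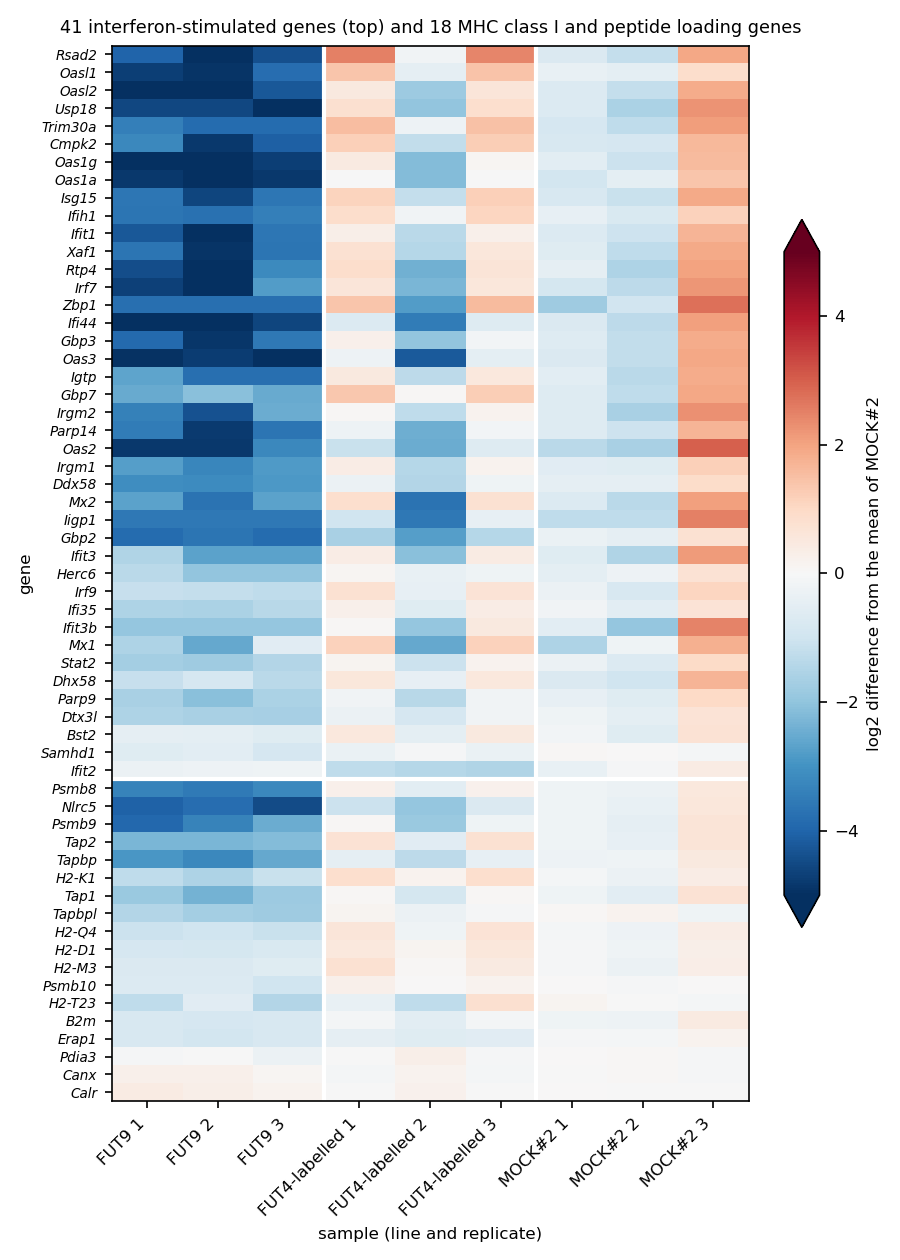
Log2 of the normalized count plus 1, less the mean of MC38-MOCK#2 (colour, from -5 to 5), of 41 of the 42 interferon-stimulated genes (above the white line) and 18 MHC class I and peptide loading genes (below it) in the 9 samples of the 3 CRISPR-dCas-VPR lines (columns). The columns of MC38-FUT9 are below the control mean in most rows, and in most interferon rows sample 2 of the FUT4-labelled line is lower than samples 1 and 3 and sample 3 of MC38-MOCK#2 is the highest of the control.

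Of 20 tested chemokines and cytokines, 6 were lower in MC38-FUT9 and 1 was higher. Ccl7, a monocyte attractant, had 27, 27 and 56 normalized counts against 316, 377 and 342 (-3.28, SE 0.283, adjusted p = 0.000297), and MC38-MOCK#2 was low with 24 to 48. Cx3cl1, or fractalkine, had 6, 8 and 16 against 88, 52 and 77 (-2.81, SE 0.381, adjusted p = 0.00181), and here the control line was the highest with 189 to 345. Ccl5, an attractant of T cells, had 2, 2 and 7 against 63, 15 and 52 (-3.19, adjusted p = 0.00976), which did not hold without sample 1 or 3 of the FUT4-labelled line or sample 1 or 2 of MC38-FUT9. Csf1, the growth factor of macrophages, was higher with 2172, 2687 and 2000 against 827, 1122 and 837 (1.3, SE 0.153, adjusted p = 0.00101). Cxcl10, itself induced by interferon, was not called, with 285, 233 and 342 against 437, 162 and 437. Without sample 2 of the FUT4-labelled line 11 members were lower.

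Among 18 tested checkpoint molecules and ligands of NK cell receptors, 6 were higher and 2 lower. Cd274, which encodes PD-L1, had 55, 34 and 34 normalized counts in MC38-FUT9 against 137, 104 and 145 (-1.65, SE 0.233, adjusted p = 0.00219), with 89 to 141 in MC38-MOCK#2. Raet1d, a ligand of NKG2D, had 25, 51 and 47 against 13, 14 and 13 (1.49, SE 0.304, adjusted p = 0.0101). The galectin Lgals3 was higher at 8237, 9721 and 9234 against 4342, 4190 and 4339 (1.08, adjusted p = 0.000110), and Nectin1 had 3, 4 and 4 against 0, 1 and 0. Lower DEGs numbered 4 without sample 2 of the FUT4-labelled line, and 1 without sample 1 of that line or without sample 2 or 3 of MC38-FUT9.

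Cell adhesion, the matrix and its proteases held some of the largest differences in both directions. Regulators of epithelial-mesenchymal transition and cadherins had 6 higher and 6 lower DEGs of 19 tested. Esrp1, a splicing factor of epithelial cells, had 3, 5 and 2 normalized counts in MC38-FUT9 against 352, 241 and 364 (-6.24, SE 0.306, adjusted p = 4.04e-05), with 16 to 23 in MC38-MOCK#2. Grhl2, an epithelial transcription factor, had 1, 0 and 0 against 9, 6 and 9. Snai2, which represses epithelial genes, was lower as well with 8, 13 and 10 against 77, 100 and 91 (-3.01, SE 0.230, adjusted p = 0.000190), and 62 to 67 in the control line. Lower DEGs of this list therefore include both epithelial factors and a repressor of them. Without sample 1 of the FUT4-labelled line 3 members were higher.

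Collagens and other matrix proteins had 13 higher and 14 lower DEGs of 46 tested, the lower ones including Thbs1 above. Fbln1, the matrix protein fibulin, had 129, 132 and 157 normalized counts in MC38-FUT9 against 1, 0 and 1 (ratio 216, interval 59.5 to 1787). Col3a1, a fibrillar collagen, had 166, 99 and 470 against 6160, 4918 and 6318 (-4.86, SE 0.514, adjusted p = 0.000655), and MC38-MOCK#2 was as high as the FUT4-labelled line with 5601, 5020 and 13474. Col5a3 had 0, 2 and 3 against 128, 33 and 130 (-5.18, SE 0.717, adjusted p = 0.00198). Another fibrillar collagen, Col1a1, went the other way with 82, 51 and 87 against 31, 19 and 26 (1.49, adjusted p = 0.00689). Without sample 1 of MC38-FUT9 8 members were higher.

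Among 27 tested matrix proteases and inhibitors, 5 were higher and 2 lower. Mmp16, a membrane-type metalloproteinase, had 437, 397 and 499 normalized counts against 4, 4 and 6 (6.31, SE 0.194, adjusted p = 1.09e-05), with 11 to 21 in the control line. Mmp11 was lower with 174, 145 and 167 against 1272, 468 and 1292 (-2.50, SE 0.380, adjusted p = 0.00300), sample 2 of the FUT4-labelled line again being the lowest of its line. Of 15 tested integrin subunits 1 was higher and 4 lower, led by Itga7, a laminin receptor chain, with 11, 13 and 11 against 266, 175 and 229 (-4.13, SE 0.193, adjusted p = 3.46e-05) and 7 to 14 in the control line. Itga6, another laminin receptor chain, had 767, 848 and 798 against 1335, 1130 and 1331 (-0.65, adjusted p = 0.00134). The higher member, Itga1 (0.62, adjusted p = 0.0465), was not called without sample 1 or 2 of the FUT4-labelled line or without any of the samples of MC38-FUT9, and 2 integrins were lower without sample 1 or 3 of the FUT4-labelled line or sample 3 of MC38-FUT9.

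Receptors and ligands of growth factors had 15 higher and 13 lower DEGs of 45 tested, Hgf being the largest. Egfr, the receptor of epidermal growth factor, had 2, 0 and 0 normalized counts in MC38-FUT9 against 56, 31 and 52 (ratio 88.9 between the FUT4-labelled line and MC38-FUT9, interval 24.2 to 741), with 3 to 9 in MC38-MOCK#2. Epha3, an ephrin receptor, had 2, 0 and 0 against 25, 52 and 28, with 63 to 103 in the control line. The control line was therefore nearer to MC38-FUT9 for Egfr and on the side of the FUT4-labelled line for Epha3.

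In the TGF-β and BMP pathway, 7 genes were higher and 4 lower of 28 tested. Grem1, a secreted antagonist of BMPs, had 3615, 4676 and 4390 normalized counts against 235, 255 and 230 (4.13, SE 0.103, adjusted p = 4.53e-06). MC38-MOCK#2 had 636 to 1044, so that both lines lay on either side of their control. Inhba, the chain of activin A, had 325, 318 and 754 against 103, 59 and 90 (2.37, SE 0.370, adjusted p = 0.00335), and Tgfbr3, a TGF-β coreceptor, had 217, 235 and 402 against 26, 19 and 21 (3.59, SE 0.257, adjusted p = 0.000157). The ligand Bmp5 had 0 in all samples of MC38-FUT9 against 30, 25 and 29, at least 9.33-fold lower, and at most 2 in the control line.

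Wnt ligands, targets and feedback genes had 10 higher and 5 lower DEGs of 27 tested, and the named lower genes were mostly ligands. Wnt10b had 82, 60 and 51 normalized counts against 725, 442 and 747 (-3.28, SE 0.251, adjusted p = 0.000190). Wnt7b had 1, 0 and 0 against 25, 20 and 19 (ratio 79.9, interval 13.9 to 3204), and Wnt11 had 0 in all samples against 23, 7 and 21, at least 5.67-fold lower. In MC38-MOCK#2 Wnt10b had 103 to 129 and the other ligands at most 1, so that the FUT4-labelled line was the high line for these 3 genes. Rnf43, which removes Wnt receptors from the membrane, had 2, 0 and 1 against 16, 11 and 12, with 19 to 21 in the control line.

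Of 20 tested genes of the Notch pathway 3 were higher and 8 lower. The target gene Hey1 had 2, 1 and 2 normalized counts against 169, 208 and 145 (-6.05, SE 0.269, adjusted p = 3.09e-05), with 28 to 43 in MC38-MOCK#2, and its relative Hey2 had 0 in all samples against 4, 9 and 6. Mfng, a fringe enzyme that extends O-linked fucose on Notch, had 7, 10 and 6 against 134, 158 and 148 (-4.11, SE 0.219, adjusted p = 5.52e-05). The ligand Dll1 was higher at low level, with 9, 8 and 10 against 2, 0 and 1 (2.46, adjusted p = 0.00717). Without sample 1 or 3 of the FUT4-labelled line 5 members were lower. Among 39 axon guidance genes 9 were higher and 12 lower, and besides Robo2 its relative Robo1 had 8, 6 and 8 against 282, 292 and 300 (-5.14, SE 0.162, adjusted p = 1.19e-05). The semaphorins Sema3f (1, 2 and 1 against 24, 32 and 25) and Sema6a (1, 2 and 1 against 39, 17 and 35) were lower, with 308 to 412 and 3 to 7 in the control line.

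MAPK feedback and immediate early genes were split, with 8 higher and 8 lower of 32. Spred3, an inhibitor of the RAS-MAPK cascade, had 492, 406 and 616 normalized counts against 147, 78 and 148 (2.05, SE 0.276, adjusted p = 0.00175), and Ereg, a ligand of EGFR, had 451, 485 and 780 against 193, 156 and 159 (1.71, SE 0.212, adjusted p = 0.00125). The early response gene Ier3 had 1696, 2173 and 1665 against 6863, 7071 and 6984 (-1.93, SE 0.104, adjusted p = 5.73e-05), and Dusp5, a phosphatase of ERK, had 55, 75 and 72 against 202, 145 and 163 (-1.32, SE 0.175, adjusted p = 0.00165). No sample overlapped between the lines for these 4 genes. Without sample 1 or 3 of the FUT4-labelled line 5 members were higher, and lower members numbered 5 or 4, or 5 without sample 1 or 3 of MC38-FUT9.

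Cell cycle genes had 15 higher and 8 lower DEGs of 43, and p53 targets 5 higher and 12 lower of 25. Ccne1, cyclin E, had 727, 814 and 693 normalized counts in MC38-FUT9 against 297, 331 and 276 (1.3, SE 0.0940, adjusted p = 0.000161), while the CDK inhibitors Cdkn2c (591, 579 and 591 against 269, 308 and 281) and Cdkn2a (78, 88 and 109 against 52, 33 and 36) were higher too. Cdkn1c, another CDK inhibitor and an imprinted gene, had 1, 0 and 1 against 72, 63 and 63 (ratio 123, interval 33.6 to 1021), with 1 to 10 in MC38-MOCK#2. Higher DEGs of this list therefore include a cyclin as well as CDK inhibitors. Of the p53 targets Btg2, an antiproliferative factor, had 4, 3 and 10 against 101, 61 and 108 (-3.87, SE 0.434, adjusted p = 0.000826), and Plk2, a polo-like kinase, had 813, 1258 and 828 against 188, 247 and 214 (2.13, SE 0.187, adjusted p = 0.000322). Eda2r, a receptor of the TNF family, had 57, 51 and 58 against 213, 163 and 197 (-1.76, SE 0.134, adjusted p = 0.000186).

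In lipid synthesis, 4 genes were higher and 12 lower of 32 tested. Enzymes of the sterol pathway did not move together. Hmgcs1, an early step, had 2803, 2947 and 3006 against 1438, 1500 and 1436 (1.0, SE 0.0502, adjusted p = 4.31e-05), while Fdft1, the squalene synthase, had 830, 901 and 904 against 2067, 1992 and 2105 (-1.23, SE 0.0559, adjusted p = 3.34e-05) and Mvd, a decarboxylase of the mevalonate route, had 728, 756 and 783 against 1312, 1154 and 1425 (-0.77, SE 0.0845, adjusted p = 0.000742). Lower members numbered 6 and 7 without samples 1 and 3 of the FUT4-labelled line and 7 without sample 1 or 2 of MC38-FUT9.

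Of 30 tested genes of glycolysis and the hypoxia response, 11 were lower, 0 were higher and 19 were not called (median -0.35). Ankrd37, a hypoxia-induced gene, had 27, 24 and 30 normalized counts against 85, 62 and 80 (-1.45, SE 0.185, adjusted p = 0.00140), Pfkp, a phosphofructokinase, had 1046, 946 and 1005 against 2253, 1787 and 2267 (-1.07, SE 0.102, adjusted p = 0.000439), and P4ha2, a collagen prolyl hydroxylase, had 363, 315 and 394 against 686, 655 and 712 (-0.94, SE 0.0923, adjusted p = 0.000481). In all 3 genes MC38-MOCK#2 averaged between the lines or as high as the FUT4-labelled line. Without sample 2 of the FUT4-labelled line 17 members were lower, and without sample 1 of it 1 was higher. In the ER stress and amino acid response 6 genes were higher and 9 lower of 32, among them the stress factors Atf5 (2490, 2834 and 3018 against 1255, 887 and 1257) and Cebpg (1118, 1144 and 1101 against 515, 528 and 528) as higher and Atf3 (4, 8 and 7 against 67, 38 and 52) as lower genes. Lower members of that list numbered 5 without sample 1 of the FUT4-labelled line or sample 2 of MC38-FUT9.

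Of imprinted and oncofetal genes, 3 were higher and 6 lower of 15 tested. Igf2bp3, an oncofetal RNA-binding protein, had 7, 6 and 1 normalized counts against 208, 266 and 218 (-5.58, SE 0.520, adjusted p = 0.000404), and Plagl1, an imprinted zinc finger gene, had 5, 5 and 6 against 209, 209 and 193 (-5.02, SE 0.165, adjusted p = 1.31e-05). Plagl1 was high in MC38-MOCK#2 as well, with 135 to 156, whereas Igf2bp3 had 16 to 33 there. The imprinted Zim1 had 0, 0 and 2 against 49, 26 and 47. The 3 higher calls fell to 0 without any single sample of the FUT4-labelled line or without sample 1 or 3 of MC38-FUT9.

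Hox genes record the position along the body axis at which a cell arose. Of 32 tested, 4 were higher and 8 lower, and the lower genes of largest difference were in the Hoxb cluster. Hoxb9 had 1, 2 and 2 normalized counts in MC38-FUT9 against 120, 68 and 95 (-5.15, SE 0.319, adjusted p = 9.24e-05), Hoxb8 had 4, 2 and 0 against 88, 58 and 83 (-4.95, SE 0.590, adjusted p = 0.00106), and Hoxb13 had 2, 2 and 1 against 64, 38 and 61 (-4.36, SE 0.333, adjusted p = 0.000190). MC38-MOCK#2 held 9 to 23, 6 to 11 and 8 to 11 of them, between both lines. Hoxb7 had 1, 0 and 1 against 10, 10 and 13 and was lower too, while the other tested members of the cluster, Hoxb2 to Hoxb6, were not called. Hoxc10 had 2, 1 and 0 against 17, 23 and 19. The higher members Hoxa3, Hoxa4, Hoxa7 and Hoxd8 had log2 fold changes of 0.45 to 0.87.

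Of 6 tested epithelial markers 1, Krt20, was lower, and the list summed to 12, 13 and 12 normalized counts in MC38-FUT9 against 462, 270 and 481. Of 7 mesenchymal markers Pdgfra (1.15), Pdgfrb (2.58) and Col1a1 were higher while Vim was lower (-0.38), a call that ended without sample 1 or 3 of the FUT4-labelled line. Without sample 1 of MC38-FUT9 2 of them were lower. The erythroid Hba-a1 had 0, 2 and 3 normalized counts against 44, 35 and 47 and the endothelial cadherin Cdh5 0, 1 and 0 against 10, 6 and 16, but the defining endothelial Pecam1 and Kdr had at most 4 in any of the 6 samples. Ptprc, present on all leukocytes, had at most 5. Cd68, a macrophage marker that other cells also express, had 24, 26 and 25 against 33, 48 and 36 and was not called.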

How the data were processed

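RNA of 24 samples was sequenced as single 50-base reads from stranded poly(A) libraries. Per the paper's methods and the labels, the authors trimmed reads with Sickle, aligned them with HISAT2 2.0.4 to GRCm38, counted them per gene with featureCounts of Subread 1.5.0-p3 and normalized with edgeR 3.18.1 for library size and TMM. The deposited values, of the unit score, are these counts times 1 factor per library, rounded to whole numbers, and are called normalized counts. They are not raw counts, so no count model was used. Strand use in counting is not given in the sources used here.

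Genes with at most 4 zeros among the 6 samples were tested with limma 3.58.1 on log2(value + 1), a pseudocount of 1 (lmFit, eBayes with trend) and Benjamini-Hochberg adjustment, with no covariate. The paper's methods describe harvests of different passages at different times, but for the lines the paper reports and not for those compared here. Whether these were harvested in the same way is not given. The p-values measure the spread between samples of 1 line each. Samples 1 and 3 of the FUT4-labelled line are both labelled passage 7. Whether they are separate harvests is not given, and the spread within that line may be understated. Library factors, and so reads, were estimated from which whole numbers occur, a method off by at most 0.00822% on 7 simulated factors. On simulated data, 160 of 200 genes changed 2-fold among 21221 were called, all in the right direction, and 0 of the unchanged genes. With no changed gene 0 were called. The changed genes were drawn from those with a mean of at least 10. Samples were simulated as independent, with a spread smoothed over expression level. The simulation therefore does not cover changes in genes of lower level, spread particular to a gene or samples that are not independent. Intervals and floors cover counting error only.

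Named genes are Fut9 and Fut4, the 12 DEGs per direction of largest change with no overlap and a mean of at least 50, up to 4 DEGs of largest change in each of 26 pathway and 5 marker lists, and the 5 tested genes on either side of Fut9 and Fut4. Other members were named after their values were seen. Members and lists were chosen with earlier results of these data known. Alternatives were the pseudocount, filter, scaling, samples fitted, trend, replicate block, passage, merging of samples 1 and 3 of the FUT4-labelled line, removal of chromosome medians, a fold threshold and leaving out each sample. Those for MC38-MOCK#2 were chosen after seeing the data. Python 3.11.15, numpy 2.4.6, pandas 2.3.3, scipy and matplotlib 3.10.9 were used. Some named genes are not reported here.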

Additional observations from a re-analysis of the deposited data

How the results depend on the processing

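The 6922 DEGs between MC38-FUT9 and the FUT4-labelled line became 5458 to 7053 under other pseudocounts, filters, scalings, fits and covariates, with 0 shared DEGs of opposite direction in the settings compared, and 5294 to 7073 when 1 sample was left out (2681 to 3408 higher, 2602 to 3665 lower). With an absolute log2 fold change above 1 asked for, 2493 were left (909 higher, 1584 lower). Scaling to equal totals gave 2877 higher and 4156 lower DEGs. Against MC38-MOCK#2, MC38-FUT9 had 3430 DEGs (1638 higher) without the trend and 1822 (706 higher, 1116 lower) above the fold threshold, and 2694 to 5035 (1326 to 2539 higher, 1368 to 2496 lower) with 1 sample left out. The FUT4-labelled line against MC38-MOCK#2 had 2270 DEGs (1040 lower) without the trend, 1447 (847 higher, 600 lower) above the fold threshold, and 1592 to 3074 (834 to 1691 higher, 758 to 1386 lower) with 1 sample left out. Replicate numbers did not pair the samples: same-numbered samples of MC38-FUT9 and the FUT4-labelled line had correlations of 0.0217, 0.110 and 0.0324 of their deviations, and sample 3 of MC38-FUT9 correlated best with sample 1 of the other line (0.105). The replicate block gave 6062 DEGs between the lines, and 1756 (900 higher, 856 lower) for the FUT4-labelled line against MC38-MOCK#2. Fut9 kept its call in all alternatives, at 1.80 to 2.09 on the log2 scale. Fut4 was called with all 8 lines in the fit (-0.67, adjusted p = 0.0451), and without sample 2 of the FUT4-labelled line (-1.0, adjusted p = 0.0144). It was not called in the other fits with 1 sample left out, at -0.67 or -0.50. With samples 1 and 3 of the FUT4-labelled line merged, lower DEGs were 23 among interferon-stimulated, 5 among Notch, 5 among MAPK (with 5 higher) and 7 among lipid synthesis genes. The cause of these changes was not tested. Of 130 named genes with a call, 108 kept it in every alternative and 0 of 147 named genes reversed. A minimum mean of 10 could not be applied to Fut4 and 18 other named genes, which fall below it. Depth limits what can be said of genes with a few reads, such as Fut4.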

Other observations

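The direction of the differences between MC38-FUT9 and the FUT4-labelled line varied by chromosome. These values are over genes with a mean of at least 10 normalized counts, of which 44.4% were DEGs. On chromosome 7, 435 of 1021 genes were higher in MC38-FUT9 and 105 lower, with a median log2 fold change of 0.31. On chromosome 2, 110 of 1105 were higher and 424 lower (median -0.22). Chromosome 5 had 338 higher and 100 lower genes of 879 (median 0.22), and chromosome 16 had 152 higher and 41 lower of 390 (median 0.26). Over the same genes of the whole genome the median was 0.03.

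Against MC38-MOCK#2, which both comparisons share as control, the medians of MC38-FUT9 were 0.29 on chromosome 7 and -0.20 on chromosome 2, and those of the FUT4-labelled line were -0.02 and 0.01. Chromosome 16 had a median of 0.05 for MC38-FUT9 and -0.23 for the FUT4-labelled line, and chromosome 14 had -0.02 and 0.31. Within chromosome 10 the median log2 fold change between the lines was -0.26 for the 174 genes from 80 to 100 Mb and 0.19 for the 101 genes from 120 to 140 Mb. On chromosome 7 it was positive in every window of 20 Mb, from 0.03 to 0.49. With the median of each chromosome removed, 6482 genes were DEGs. Of the 6922 DEGs found without this removal, 5522 (79.8%) were among them. DNA copy number was not analysed here, and no cause was tested.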
